A study of Homo sapiens with 6 samples.

Results

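The 10 genes described here encode the 5 subunits of the transcription factor NF-kappaB (NFKB1, NFKB2, RELA, RELB and REL) and 5 of its feedback inhibitors (NFKBIA, NFKBIB, NFKBIE, NFKBIZ and TNFAIP3). They were chosen by symbol. All 10 were found, each as 1 row, among the 63009 genes read. Of these genes, 13993 had a mean of at least 1 FPKM (sequenced fragments per transcript length and library size) over the 6 libraries and were tested, and 8 of the 10 members were among them.

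The study asked how oncogenic Ras changes mitosis in cells on their way to senescence. ERRAS cells are IMR90 cells, primary human fibroblasts of early passage, that carry a retroviral fusion of the estrogen receptor with H-RasV12 (ER:RAS), whose activity is switched on by tamoxifen. RNA-seq compared 3 libraries of uninduced ERRAS cells (control) with 3 libraries of ERRAS cells induced for 4 days (Ras-induced). The labels give the inducer as tamoxifen at 100 nM and the study's methods as 4-hydroxytamoxifen at 100 ng/ml. The cells of both groups carried ER:RAS and were arrested with 1 µM dimethylenastron (DME), which inhibits the spindle motor Eg5, and both groups consist of the detached, mitotic cells that were washed off. The control cells were therefore arrested by a drug as well, and no library of cells without DME enters the comparison. The study repeated the experiment independently, whereas the labels do not say which libraries came from separate cultures, so p-values measure the spread between these libraries.

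NF-kappaB proteins bind DNA as pairs. In the canonical branch, RELA pairs with p50, which is cut from the NFKB1 product, and is held in the cytoplasm by IkappaB proteins until the IKK kinase complex marks these for degradation; in the non-canonical branch, RELB pairs with p52, which is cut from the NFKB2 product. NFKBIA, NFKBIE, TNFAIP3, NFKB2 and RELB are themselves well-known targets of NF-kappaB, which makes the system a feedback loop, and in senescent fibroblasts NF-kappaB is known for driving secreted inflammatory factors. RNA levels show neither where these proteins are nor whether they bind DNA.

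Since several of these genes are regulated by the factor they encode or inhibit, the DNA before their start sites was searched for the kappaB consensus, the 10-base motif to which NF-kappaB binds. RefSeq promoters (table built on GRCh38.p14) were given for 8 of the 10 genes, and 7 of the 8 (87.5%) held at least 1 match to the consensus on either strand within 250 bases before a start site. The same was true of 6.28% of the 27305 genes in that table. Counted by window, since some genes have several start sites, 9 of 14 member windows (64.3%) held a match, against 5.21% of all 35116 windows. The target genes listed further on stood at 42.3% (11 of 26 genes) and the upstream pathway genes at 9.3% (4 of 43). The target list was made of known NF-kappaB targets, and several members are such targets too. These shares are therefore a description and not a test. The match nearest to a start site is shown for each of the 7 genes, in capitals between 9 bases on each side, because it lets the shared motif be seen in subunits and inhibitors alike. Overlapping matches were joined and counted as 1, so the capitals of REL and NFKBIB run to more than 10 bases. The sequences are from RefSeq, run 5′ to 3′ on the gene's strand and are placed by exact match on GRCh37, the build of the deposited values.
NFKB1 (chr4:103422458-103422485, plus strand): gacgtcagtGGGAATTTCCagccaggaa
NFKB2 (chr10:104155432-104155459, plus strand): ggtattttcGGGACTTTCCtaagctgct
REL (chr2:61108653-61108681, plus strand): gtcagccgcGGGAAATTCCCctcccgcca
NFKBIA (chr14:35874018-35874045, minus strand): gactggcttGGAAATTCCCcgagcctga
NFKBIB (chr19:39390572-39390600, plus strand): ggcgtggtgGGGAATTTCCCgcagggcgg
NFKBIZ (chr3:101546602-101546629, plus strand): ttttggtctGGGAATTTCCagtgtgcag
TNFAIP3 (chr6:138188332-138188359, plus strand): aagtcccgtGGAAATCCCCgggcctaca

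The NFKB2 match lay 21 to 12 bases before the start of its last listed window, the NFKBIA match 81 to 72 bases before its start and the TNFAIP3 match 55 to 46 bases before its start. TNFAIP3 had another match 67 to 58 bases before the start, and NFKB2 had 3 more over its windows. The NFKBIA stretch lay outside annotated exons, the REL and NFKBIZ stretches lay wholly inside an annotated exon, and the other 4 overlapped an exon by 9 to 19 bases. Neither RELA window held a match, which says only that these letters are not there. A match is a description of the sequence and not evidence that NF-kappaB is bound.

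RELA, the main activating subunit of the canonical branch, was the most abundant of the 10 transcripts in both groups. Its control libraries held 52.7, 49.9 and 46.9 FPKM, and its Ras-induced libraries held 46.5, 45.9 and 46.2 FPKM. The groups did not overlap, but by less than 1 FPKM between the lowest control and the highest Ras-induced library, and the log2 fold change of -0.11 (SE 0.07, 95% interval -0.28 to 0.07) was not called (limma, adjusted p = 0.365). All fold changes are Ras-induced over control on a log2 scale after adding 1 to each FPKM, so that changes at low FPKM come out too small, and a gene is called altered at a Benjamini-Hochberg adjusted p of at most 0.05 over all tested genes.

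NFKB1, the source of the p50 partner, stood at 24.4, 19.7 and 26.3 FPKM in control and at 22.4, 16.3 and 21.7 FPKM after induction. The groups overlapped, and its log2 fold change of -0.22 (95% interval -0.59 to 0.16) was not called (limma, adjusted p = 0.387). REL, the c-Rel subunit best known from lymphocytes, was barely present, at 0.453, 0.441 and 0.546 FPKM in control and 0.371, 0.0998 and 0.290 FPKM in Ras-induced libraries. Its mean fell under the filter, so it was left out of the fit. Every Ras-induced library lay below every control library, for which the exact two-sided permutation test gives p = 0.1, the smallest value that 3 libraries against 3 allow. REL shares 33.3% of its exonic bases with a long non-coding RNA on the same strand, so part of its low signal cannot be assigned to it with certainty.

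The subunits of the non-canonical branch were both lower in Ras-induced mitotic cells. NFKB2 (ENSG00000077150, chr10:104153867-104162281 on GRCh37, plus strand), the source of p52, stood at 28.6, 25.8 and 36.1 FPKM in control and at 21.2, 19.0 and 20.1 FPKM after induction. The groups lay apart, with means of 30.2 ± 5.33 and 20.1 ± 1.12 FPKM (SD, n = 3 each), and control library 3 stood highest. The log2 fold change was -0.55 (SE 0.13, 95% interval -0.87 to -0.24; limma, adjusted p = 0.0354). RELB (ENSG00000104856, chr19:45504719-45541450, plus strand), the partner of p52, stood at 24.0, 24.9 and 28.0 FPKM in control and at 18.7, 16.0 and 17.9 FPKM after induction. Again no library of one group reached the other, and the means were 25.7 ± 2.07 and 17.5 ± 1.36 FPKM (SD, n = 3 each). Its log2 fold change was -0.52 (SE 0.10, 95% interval -0.76 to -0.29; limma, adjusted p = 0.0167). In linear terms the group mean of NFKB2 was 0.666 times and that of RELB 0.683 times the control mean.

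Thus 2 of the 8 tested members were called, both lower and both subunits. Of all tested genes, 16.7% were called, 5.67% as lower and 11% as higher. No member was called higher by limma, and none had an unadjusted p under 0.05 in that direction, while 4 members did as lower. The call for NFKB2 was lost without a filter on low values (adjusted p = 0.0807) and without the mean-variance trend (0.0502). It was also lost without control library 1 (adjusted p = 0.0933) or 2 (0.0544) and without Ras-induced library 1 (0.0872), 2 (0.1) or 3 (0.113), and remained without control library 3. RELB lost its call without control library 2 (adjusted p = 0.0641) or Ras-induced library 3 (0.0631). The log2 fold change of NFKB2 ranged from -0.65 to -0.42 and that of RELB from -0.57 to -0.46 over these 6 fits.

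**Figure D1:**
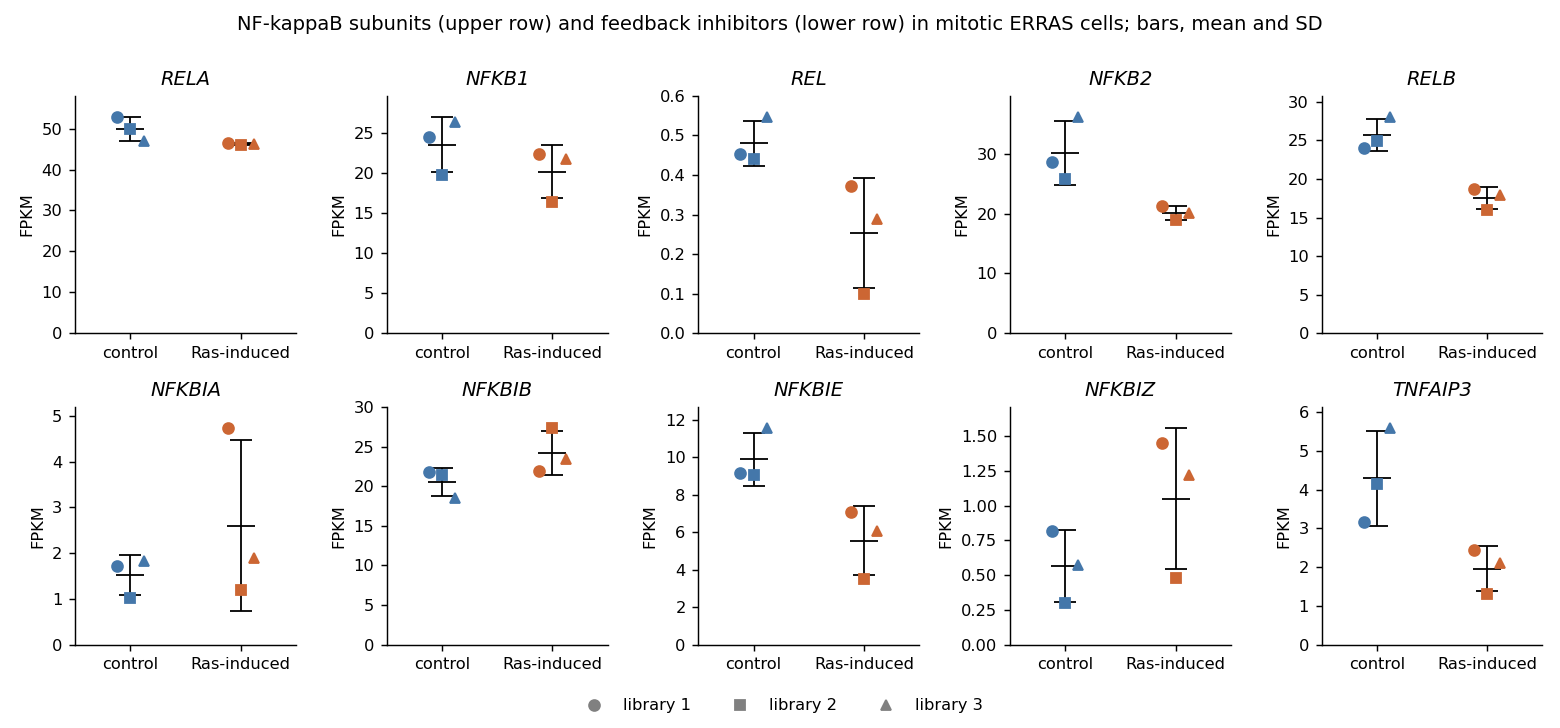
FPKM (vertical axes, starting at 0) of the 10 genes in each of 3 control (blue) and 3 Ras-induced (orange) libraries, with the library number given by the shape of the point; bars are the group mean and SD. NFKB2, RELB, NFKBIE, TNFAIP3, RELA and REL have 3 Ras-induced points below all control points, RELA and REL by less than 1 FPKM. The same holds for 12.8% of all tested genes. The NFKBIA mean of the Ras-induced group is carried by library 1 at 4.72 FPKM.

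Among the inhibitors, NFKBIE and TNFAIP3 showed the largest differences of all tested members, although neither was called. NFKBIE (ENSG00000146232, chr6:44225903-44233525, minus strand) encodes IkappaB-epsilon, which holds RELA and c-Rel pairs in the cytoplasm. Its level was 9.14, 9.03 and 11.5 FPKM in control and 7.10, 3.49 and 6.06 FPKM in Ras-induced libraries. The highest Ras-induced library stayed below the lowest control, yet the Ras-induced libraries differed from each other by more than the gap between the groups. The log2 fold change was -0.77 (SE 0.23, 95% interval -1.32 to -0.22; limma, adjusted p = 0.0662). TNFAIP3 (ENSG00000118503, chr6:138188351-138204451, plus strand) encodes A20, a ubiquitin-editing enzyme that shuts off signalling upstream of IKK. It stood at 3.16, 4.14 and 5.58 FPKM in control and at 2.45, 1.32 and 2.12 FPKM after induction, without overlap. Its mean of 1.96 ± 0.582 FPKM was 0.457 times that of control, 4.29 ± 1.22 FPKM (SD, n = 3 each), and the log2 fold change was -0.83 (SE 0.23, 95% interval -1.38 to -0.28; limma, adjusted p = 0.0542). Quantile normalization of the libraries brought both under the threshold, at an adjusted p of 0.0436 for NFKBIE and 0.0428 for TNFAIP3, and a pseudocount of 0.1 did so for TNFAIP3 (0.0453), with adjusted p ranging from 0.0428 to 0.178 over all alternatives for these genes.

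**Figure D2:**
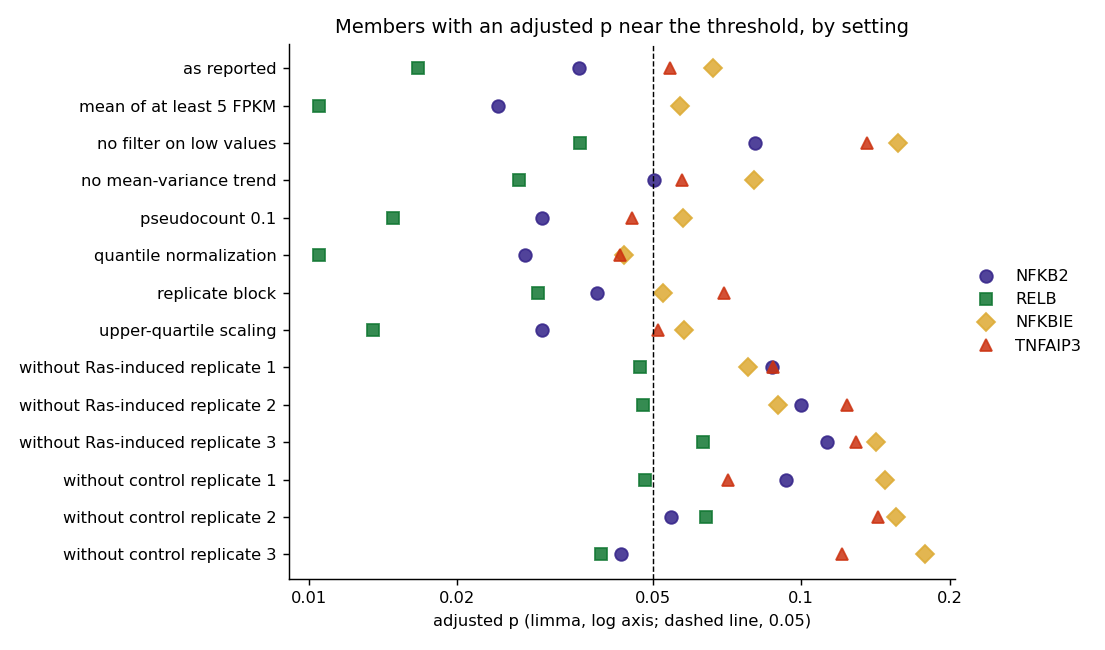
Limma adjusted p (horizontal, log axis, dashed line at 0.05) of NFKB2, RELB, NFKBIE and TNFAIP3 as reported and under each alternative setting (vertical); each point is 1 fit. RELB lies left of the line in all but 2 alternatives, NFKB2 in 6 of 13, TNFAIP3 in 2 and NFKBIE in 1.

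NFKBIA encodes IkappaB-alpha, the inhibitor that is resynthesized first after NF-kappaB activation. It was scarce, at 1.71, 1.01 and 1.83 FPKM in control and 4.72, 1.18 and 1.89 FPKM in Ras-induced libraries. Ras-induced library 1 stood well above all other libraries, library 3 was level with the highest control, and the log2 fold change of 0.41 (95% interval -0.48 to 1.29; limma, adjusted p = 0.476) became 0.01 without it. NFKBIB encodes IkappaB-beta, an inhibitor that is not part of the rapid feedback. It was the most abundant inhibitor, at 21.8, 21.4 and 18.5 FPKM in control and 22.0, 27.3 and 23.4 FPKM in Ras-induced libraries. Here the Ras-induced libraries lay above the controls, by a margin under 1 FPKM, and the log2 fold change of 0.23 (95% interval -0.04 to 0.49) was not called (limma, adjusted p = 0.211). NFKBIZ encodes a nuclear IkappaB that modifies the choice of target genes. It stood at 0.815, 0.297 and 0.575 FPKM in control and 1.45, 0.478 and 1.22 FPKM in Ras-induced libraries. Its groups overlapped, and it was left out of the fit for its low mean (exact two-sided permutation test on the log2 scale, p = 0.3).

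Over the 8 tested members, the Ras-induced libraries all lay below the controls for 5 genes and all above for 1 gene. Over all tested genes, these shares were 12.8% and 27.1%. The median log2 fold change of the 8 tested members was -0.37, against 0.10 over all tested genes. Without the filter, the median of the 10 members was -0.23 against 0.02 over all genes, and it was -0.28 for the tested members without control library 3 or Ras-induced library 2. With the upper quartile of each library set equal, the median of all genes was 0.01 and that of the members -0.48, and 45.5% of all called genes were higher, compared with 66.1% as the values were deposited. The direction of no tested member changed under any of the alternatives.

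The libraries of a group were ordered alike for most members. Ras-induced library 1 was the highest of its group for 9 of the 10 genes and Ras-induced library 2 the lowest for 9 of the 10, NFKBIB being the exception in both cases with the reverse order. Over all tested genes, library 1 was highest of its group in 37.6% and library 2 lowest in 38.9%. In control, library 3 was the highest for 7 of the 10 members, against 31% of all tested genes, and the lowest for RELA and NFKBIB. The depth of the libraries relative to control library 1, read from the steps between low values, ran from 0.847 in Ras-induced library 2 to 1.17 in control library 3, and Ras-induced library 1 was at 1.13. The part of depth in this order was not tested.

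In the order of levels, RELA stood alone at the top of both groups. In control it was followed by NFKB2, RELB, NFKB1 and NFKBIB, each of which overlapped its neighbour over the 3 libraries, then by NFKBIE, TNFAIP3 and NFKBIA, which were all apart from their neighbours, and at the bottom by NFKBIZ and REL, which overlapped. In Ras-induced cells NFKBIB, NFKB1 and NFKB2 came after RELA, each overlapping the next, and RELB followed, apart from NFKB2 but overlapping NFKB1. NFKBIE, NFKBIA, TNFAIP3 and NFKBIZ then formed a series of overlapping neighbours above REL.

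The make-up of the subunit pool was compared as shares within a library, which do not depend on scaling between libraries, unlike the sums themselves. The summed FPKM of the 5 subunits was 121 to 138 in control libraries, compared with 97.3 to 109 after induction. RELA took 40.5, 41.3 and 34.0% of that sum in control and 42.6, 47.2 and 43.5% in Ras-induced libraries. NFKB2 took 21.9, 21.4 and 26.2% and then 19.5, 19.5 and 18.9%, and RELB took 18.5, 20.7 and 20.3% and then 17.1, 16.5 and 16.9%. So the share of RELA was higher and those of NFKB2 and RELB were lower in every Ras-induced library than in every control library, while the share of NFKB1 overlapped (16.3 to 19.1% and 16.8 to 20.5%). The sum of the 5 inhibitors overlapped between the groups, at 35.9 to 38.0 FPKM in control and 33.8 to 37.7 FPKM in Ras-induced libraries. Within it, NFKBIE went from 26.8 ± 3.04% to 15.5 ± 4.57% and TNFAIP3 from 11.6 ± 3.03% to 5.50 ± 1.40% (SD, n = 3 each), whereas NFKBIB, at 55.9 ± 6.30% and 68.9 ± 11.3%, made up the larger part in both groups. The inhibitor sum divided by the subunit sum was 0.281, 0.297 and 0.276 in control and 0.345, 0.347 and 0.327 in Ras-induced libraries. Shares of a sum depend on each other, and no test was made on them.

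**Figure D3:**
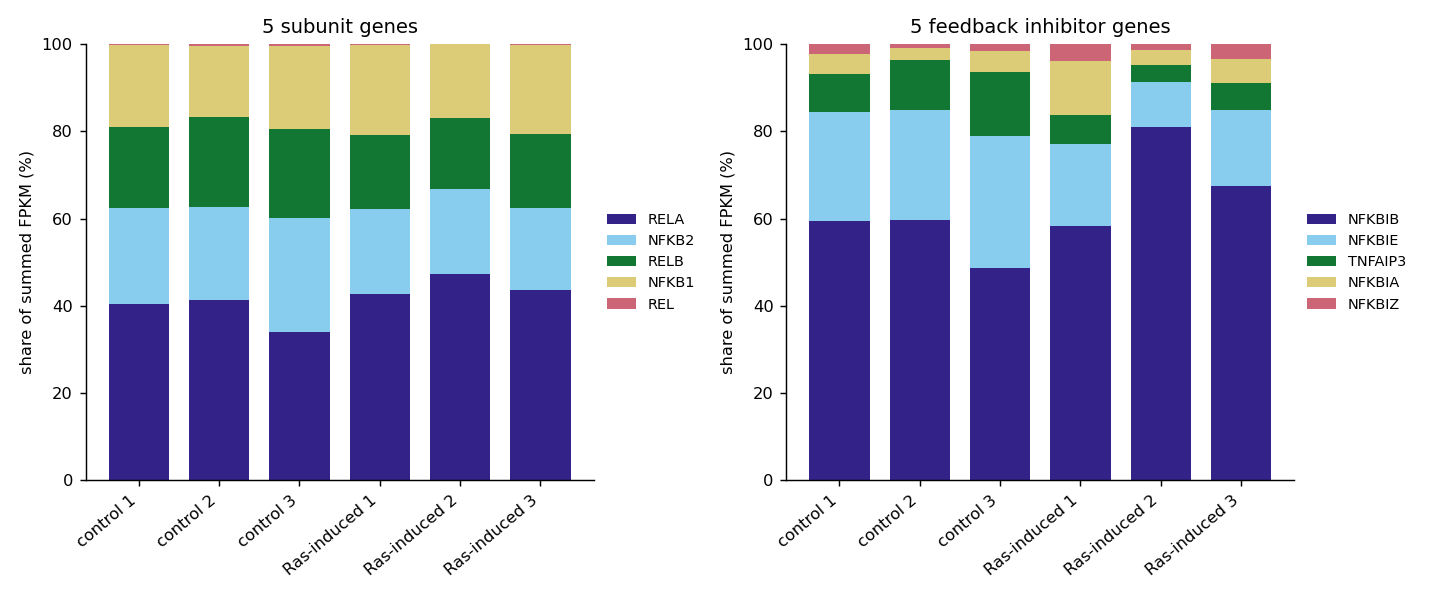
Share of each gene (vertical axis, % of the summed FPKM) in the 5 subunit genes (left) and the 5 inhibitor genes (right) in each of the 6 libraries (horizontal). RELA forms 34.0 to 41.3% of the subunit sum in control and 42.6 to 47.2% in Ras-induced libraries, and NFKBIB is the largest part of the inhibitor sum in all 6.

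The ratio of NFKB2 to NFKB1, the RNAs for the p52 and p50 precursors, was 1.17, 1.31 and 1.37 in control and 0.949, 1.16 and 0.926 in Ras-induced libraries. The ratio of RELB to RELA was 0.456, 0.500 and 0.597 in control and 0.401, 0.349 and 0.388 in Ras-induced libraries. Both ratios were lower in every Ras-induced library, by 0.35 and 0.44 on the log2 scale, although control library 1 and Ras-induced library 2 nearly met in the first. TNFAIP3 relative to RELA was 0.0599, 0.0829 and 0.119 in control and 0.0527, 0.0287 and 0.0459 in Ras-induced libraries, which is a log2 difference of -1.03. For each of these 3 ratios the exact two-sided permutation test gave p = 0.1, the smallest this design allows, and so no ratio could pass a threshold of 0.05. NFKBIA relative to RELA overlapped between the groups (exact permutation p = 0.4). With Benjamini-Hochberg adjustment over the 4 ratios, these exact permutation values became 0.133 and 0.4.

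**Figure D4:**
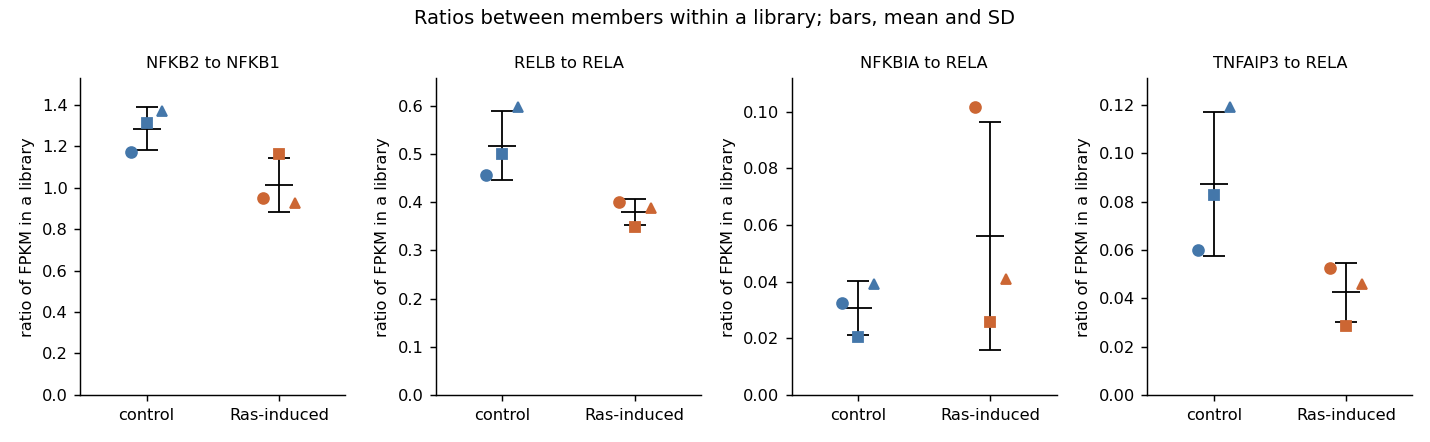
Ratios of FPKM between 2 members within a library (vertical axes, starting at 0) in 3 control (blue) and 3 Ras-induced (orange) libraries; circles, squares and triangles are libraries 1, 2 and 3, and bars are the group mean and SD. NFKB2 to NFKB1, RELB to RELA and TNFAIP3 to RELA are lower in all Ras-induced libraries, and the NFKBIA to RELA groups overlap.

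Of 48 receptors, adaptors, kinases, ubiquitin ligases and negative regulators of the pathway, 46 were tested, and limma called 1 lower and 0 higher, with 6 and 10 at an unadjusted p under 0.05. That is 2.17% of the upstream genes tested, beside 16.7% of all tested genes. The called gene was TRAF2, an adaptor that joins receptors to IKK and, with TRAF3, keeps the non-canonical branch in check. It stood at 19.9, 21.4 and 20.2 FPKM in control and 15.2, 16.9 and 15.4 FPKM in Ras-induced libraries (log2 fold change -0.35, SE 0.08; limma, adjusted p = 0.034), and its call was lost without any 1 library other than Ras-induced library 2, with adjusted p from 0.06 to 0.114. No gene of the IKK complex was called, and the log2 fold changes were 0.01 for CHUK (IKK-alpha; 95% interval -0.22 to 0.24), -0.11 for IKBKB (IKK-beta; -0.42 to 0.21) and 0.10 for IKBKG (NEMO; -0.14 to 0.34). The list's median of 0.08 was near the 0.10 of all tested genes. TLR4, the receptor for bacterial lipopolysaccharide, is listed at 0 in all 6 libraries.

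Downstream, well-known NF-kappaB target genes went in both directions. Of 33 listed, 21 were tested, of which 7 were called higher and 3 lower, beside 11% and 5.67% of all tested genes. Of these 10 called genes 4 passed the filter only through the group in which they were higher, BCL2A1, IL1B and CXCL1 through Ras-induced cells and TRAF1 through control, so the count is given as a description only. Many of these genes are also regulated by AP-1 or ERK signalling, so their levels do not read out NF-kappaB alone. The largest rise was that of BCL2A1, a survival factor of the Bcl-2 family, from 0.0962, 0.304 and 2.14 FPKM in control to 7.15, 10.02 and 24.7 FPKM in Ras-induced libraries (log2 fold change 3.00). IL1B, the cytokine interleukin-1 beta, rose by 2.10 and TNFAIP6, a secreted hyaluronan-binding protein, by 1.63. IER3, an early-response gene, rose by 1.41, LIF, a cytokine of the interleukin-6 family, by 1.34, and CXCL8, the chemokine interleukin-8, by 1.30 on the same scale. For the 4 of these genes that exceeded 1 FPKM in both group means, the limma adjusted p ran from 0.00283 (IER3) to 0.034 (LIF).

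The 3 target genes called lower were BIRC3, TRAF1 and CSF1. BIRC3, the ubiquitin ligase cIAP2, which acts with TRAF2, fell from 11.1, 10.4 and 17.8 FPKM to 3.61, 0.995 and 1.86 FPKM (log2 fold change -2.21; limma, adjusted p = 0.00949). TRAF1, an adaptor of the same complexes, fell from 2.97, 2.80 and 3.59 FPKM to 0.975, 0.692 and 1.29 FPKM (log2 fold change -1.06; limma, adjusted p = 0.0133). It passed the filter only through control, where it was higher. The macrophage growth factor CSF1 fell by 1.51 on the log2 scale (limma, adjusted p = 0.00618). In the 3 control libraries of BIRC3 and TRAF1, library 3 was again the highest. IL6 and ICAM1, a cytokine and an adhesion molecule often used as readouts of NF-kappaB, were not called, with log2 fold changes of -0.46 (95% interval -1.14 to 0.22) and 0.10 (-1.56 to 1.76). ICAM1 varied widely within a group, at 16.0, 8.96 and 62.3 FPKM in control.

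Among these targets, the calls for IER3, CSF1, IL1B, TNFAIP6 and TRAF1 were kept when any 1 library was left out, and IL1B and TRAF1, which passed the filter through 1 group, were also called without the filter. That for BIRC3 was lost without Ras-induced library 3 (adjusted p = 0.0513). BCL2A1 lost its call without control library 1 or 2 or Ras-induced library 2 or 3 (0.0525 to 0.0753), CXCL8 without control library 2 or 3 or Ras-induced library 1 or 3 (0.0572 to 0.0754), and LIF without any library other than control library 3 (0.0865 to 0.12). CXCL1, the remaining gene called higher (log2 fold change 1.23; limma, adjusted p = 0.0327), lost its call without any library other than Ras-induced library 2 (0.0553 to 0.1). Without the filter on low values, BCL2A1 (0.0507), CXCL8 (0.054), CXCL1 (0.0776) and LIF (0.0944) were not called, nor was LIF under upper-quartile scaling (0.051). Without Ras-induced library 3, the count of called targets was 5.

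**Figure D5:**
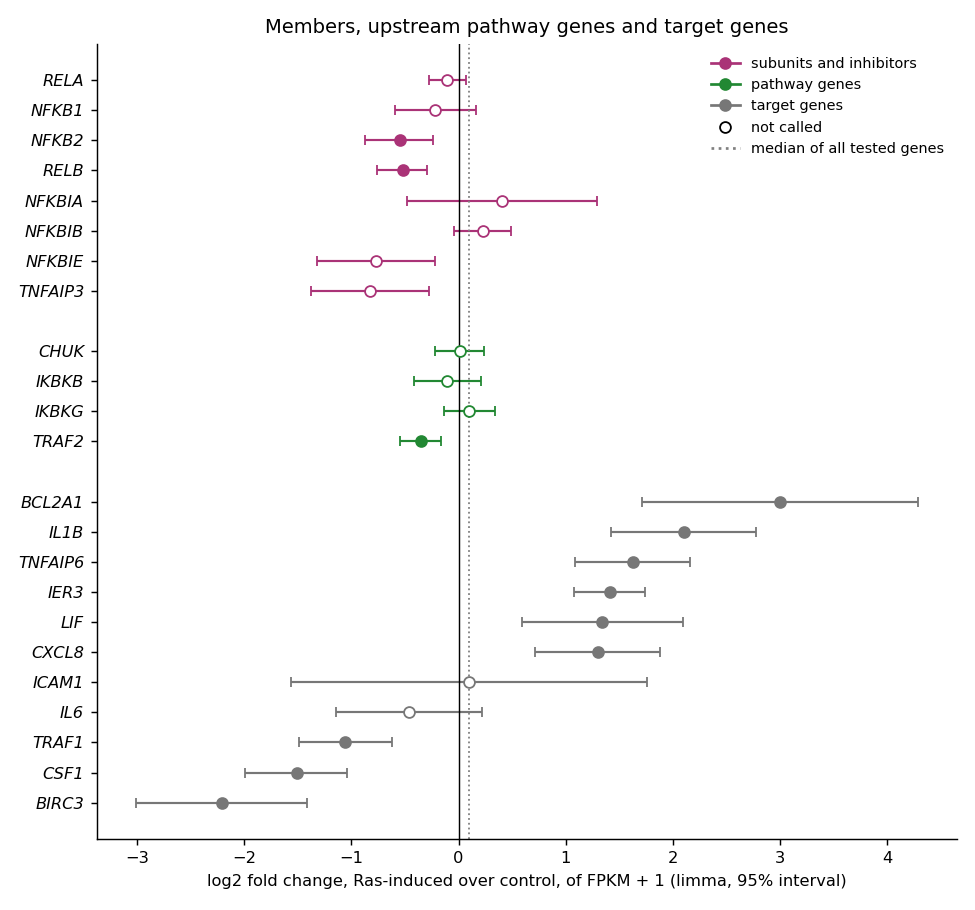
Log2 fold change of FPKM + 1, Ras-induced over control (horizontal axis), with its 95% interval, for the 8 tested members, 4 upstream pathway genes and 11 target genes; filled points were called at an adjusted p of at most 0.05 and the dotted line is the median of all tested genes, 0.10. NFKB2 and RELB are the filled members, and the target genes run from BIRC3 at -2.21 to BCL2A1 at 3.00. The target genes shown are those called, without CXCL1 (1.23, called higher), and in addition IL6 and ICAM1, which were not called.

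The labels and the make-up of the cells were checked with other genes. HRAS, to which reads of the ER:RAS transgene may also align, stood at 1140 to 1176 FPKM in control and 1439 to 1847 FPKM in Ras-induced libraries. The groups did not overlap, but 27.1% of all tested genes also lay wholly above control. Its log2 fold change of 0.44 was called (limma, adjusted p = 0.0431), but in only 3 of the 13 alternatives. Both groups carried ER:RAS, so the level of HRAS is a weak check of the labels and cannot show that Ras was active. Of 8 leukocyte markers 7 stayed under 1 FPKM in every library, with CD3E and ITGAM at 0 in all. The exception, CD68, which fibroblasts also express, made up nearly all of the list's sum of 25.6 to 31.1 FPKM in control and 30.8 to 36.2 FPKM in Ras-induced cells. Of 5 endothelial markers 4 stayed under 1 FPKM, PECAM1 being at 0 throughout, and the list's sum of 14.5 to 16.5 FPKM in control and 4.81 to 5.41 FPKM in Ras-induced cells was nearly all TEK, which was called lower. Of 6 epithelial markers 4 were tested and limma called 0 of them, with 0 at an unadjusted p under 0.05, and their sum was 24.6 to 38.5 FPKM in control compared with 23.6 to 27.8 FPKM. EPCAM, under the filter, stood at 1.05, 0.880 and 1.80 FPKM in control and at 0.272, 0.167 and 0.424 FPKM after induction, without overlap. All 8 fibroblast markers were tested, 3 of them were called lower (COL1A2, COL5A1 and THY1), and the sum of all 8 was 4843 to 5460 FPKM in control and 3137 to 4409 FPKM in Ras-induced cells. COL1A1 (log2 fold change -1.43) and COL3A1 (-1.25) were also lower in every Ras-induced library but were not called. The groups overlapped for PDGFRB (-0.04), S100A4 (0.19) and VIM (0.06). Of 10 genes of G2 and mitosis 5 were called lower, where 5.67% of all tested genes were, their sum being 1838 to 1898 and 1502 to 1657 FPKM. Of these mitotic and fibroblast calls, only that of THY1 was kept in all 13 alternatives. CENPF was called in 9 of the 13, CCNB2 and TOP2A in 7, BUB1 in 5 and PLK1 in 3, and among the fibroblast markers COL1A2 was called in 11 and COL5A1 in 6. The part of these marker differences in those of NFKB2 and RELB was not tested. In such bulk libraries, fewer cells with a transcript and less of it per cell cannot be told apart.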

How the data were processed

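Poly(A) RNA of 6 libraries was sequenced as paired-end reads. Per the submitters' processing notes and the study's methods, the authors trimmed reads with Trim Galore 0.3.0, aligned them to hg19 with TopHat2 and Ensembl splice junctions, and deposited FPKM values made with Cufflinks, 1 column per library; scaling between libraries is not given in the sources used here. Columns name the group and a number, and the libraries of a group were taken as its replicates. Another 18 columns carry no name and were not read; 120 rows with more than 6 values and 1 repeated header line were left out. The authors' Cuffdiff table holds group FPKM, log2 fold changes, a test statistic and p-values and q-values; none were used.

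The test was limma 3.58.1 (R 4.3.3) on log2(FPKM + 1) for the 13993 genes whose mean reached 1 FPKM, two-sided, with eBayes using a trend of variance on level, Benjamini-Hochberg adjustment over these genes and a threshold of 0.05. FPKM are not counts, so no count model was fitted. Read counts and the study's alignment statistics were not used here, and depths are given only between libraries. The relative depth of a library is the commonest ratio of low FPKM values in control library 1 to those of the same genes in that library. Ratios and genes under the filter were tested by exact permutation over libraries. Gene coordinates and exons are from GENCODE 44 on GRCh37, and promoters from RefSeq. Tables and figures used scipy 1.17.1, numpy 2.4.6, pandas 2.3.3 and matplotlib 3.10.9 under Python 3.11.15.

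The members and lists were chosen with earlier results of these data known. Named genes are all members, HRAS, the called genes of the pathway and target lists (up to the 6 largest rises and 6 largest falls in each), CHUK, IKBKB, IKBKG, IL6, CXCL8, ICAM1 and BIRC3, and markers that define a list or were called. TLR4, listed at 0, CXCL1, the remaining called target, and the fibroblast markers that were not called were named after their values were seen. Alternatives were a pseudocount of 0.1, no filter or a mean of 5 FPKM, quantile and upper-quartile scaling, no trend, a replicate block, each library left out, and a further limit on the size of change.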

Additional observations from a re-analysis of the deposited data

How the results depend on the processing

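Across the alternatives, no tested member and no ratio changed direction, nor did REL and NFKBIZ under those in which they had a value, and all 32 alternative values of the 4 ratios kept their sign. The 2 called members became 1 without a filter on low values or without the mean-variance trend, 4 under quantile normalization, 0 with a further absolute log2 fold change of at least 1, and 0 to 2 with a library left out. Called pathway genes numbered 2 with a mean of at least 5 FPKM, 3 under quantile normalization, 4 under upper-quartile scaling, 3 with the replicate block, 0 with the limit on size, and 0 to 3 with a library left out. Called target genes numbered 5 to 9 with a library left out, from 10. All called genes, 2336 as reported, numbered 1518 without a filter, 548 with the limit on size, and 860 to 1872 with a library left out. Quantile normalization made 48.5% and upper-quartile scaling 45.5% of the called genes higher, compared with 66.1%. NFKB2 missed the threshold without the filter (adjusted p = 0.0807) and without the trend (0.0502). On the log2 scale with a pseudocount of 0.1, the difference of REL was -0.80 and that of NFKBIZ 0.76. The causes of these changes were not tested.

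Deviations of libraries with the same number from their group means correlated at -0.0027, 0.0433 and 0.0481 across genes, all under the 0.1 at which they would be taken as pairs; whether same-numbered libraries share a day or culture is not shown by this. With the replicate block, 2310 genes, 2 members and 10 target genes were called, LIF was not (adjusted p = 0.0593), and the log2 differences of the ratios were as reported (-0.35 for NFKB2 to NFKB1). No member's symbol was repeated, so the alternative row for repeated symbols gave no value. A mean of at least 5 FPKM left NFKBIA and TNFAIP3 untested. FPKM without counts give no counting error, and low members (REL, NFKBIZ, NFKBIA) are the least certain.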

Other observations

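Over all tested genes with a RefSeq promoter, those with a match to the kappaB consensus within 250 bases before a start site (705 genes) were called higher in 11.8% and lower in 9.22%. Among the 7969 genes without a match, these shares were 12.4% and 6.15%. The median log2 fold changes were 0.09 and 0.11. No test was made on these shares, and matches were not weighed by their number or distance.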
